A study of Sus scrofa with 22 samples.

Results

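The small intestine of piglets given busulfan with cyclophosphamide (BUCY) was compared with that of piglets given doxorubicin (DOX). The comparison rests on the 5 arrays labelled as BUCY treated pig and the 6 labelled as DOX treated pig, 11 of the 22 arrays of the series. The other 11 arrays come from untreated piglets, 5 of the BUCY experiment and 6 of the DOX experiment. All were crossbred, specific pathogen-free piglets of Large White and Danish Landrace stock, described in the labels as 3 days old without saying at which step. The drugs went into a vein, DOX as a single dose. Busulfan and cyclophosphamide alkylate DNA, and doxorubicin is an inhibitor of topoisomerase II. Each drug was given in its own experiment, so the drug and the experiment cannot be told apart in the treated comparison. The untreated piglets show how the experiments differed without a drug, and untreated differences are given beside many of the treated results. Neither the labels nor the files used here give the part of the small intestine, the doses, the sampling time, the litter or the diet.

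Interferons are signalling proteins that cells release on sensing viral or damaged nucleic acid. They act through the STAT and IRF factors to switch on antiviral genes and the MHC class I machinery, which shows peptides to T cells. In the small intestine an epithelium renewed from dividing crypt cells lies over a tissue rich in T cells, macrophages and dendritic cells. Goblet and Paneth cells cover it with mucus and antimicrobial proteins. Drugs that damage DNA are known for injuring the dividing crypts, the mucosal barrier and the immune cells.

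On each 2-colour Agilent array the RNA of 1 piglet (Cy5) was set against a pool of all samples (Cy3). Levels are given as log2 of that ratio, so 0 is the level of the pool. A difference is the mean of the BUCY treated arrays minus the mean of the DOX treated arrays, with its standard error (SE), and a negative value is lower in BUCY treated piglets. Between 59.7% and 72.5% of the probes on an array were well above background. The number of arrays limits the precision. The intestinal markers CDX2, FABP2, APOA4 and ANPEP and the muscle marker DES were well above background on all 11 treated arrays. The liver protein ALB was so on 7 of them and the pancreatic hormone INS on 0. BUCY treated arrays 2 and 3 stood apart from the other treated arrays, at 54.3 and 73.4 on the first principal component, which held 43.62% of the variance, against 24.1 for the next array. The titles of 6 arrays, called the suffixed arrays, end in a suffix of unstated meaning. They are 3 BUCY treated, 1 DOX treated and 2 BUCY untreated arrays, so fits without them hold 2 BUCY treated piglets. Array 3 also had the lowest median Cy5 intensity, 88. The lowest correlation between the log ratios of any pair of treated arrays was -0.27, and the labels give the same dye order for all arrays.

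A gene was called different when limma's p, adjusted by Benjamini-Hochberg over all 24767 genes tested, was below 0.05. Genes here are symbols or, for probes with no symbol, the array's own identifiers. Between the treated groups 2629 genes differed (10.6%), 1089 higher in BUCY treated piglets (4.40%) and 1540 lower (6.22%). Of 2619 tested genes with a symbol, 122 were higher (4.66%) and 303 lower (11.6%). All genes of the lists have a symbol, and their counts stand against these shares. Between untreated piglets 10.3% of genes with a symbol were higher and 23.7% lower. The interaction called 7.41% of them higher and 3.55% lower. Differences beyond 2-fold were mostly decreases, with 79 genes higher and 333 lower. Every value of one treated group lay above every value of the other in 1203 genes (4.86%), with BUCY higher in 1.51% and lower in 3.34% of all genes tested. The untreated groups were apart in this way in 17.9%.

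The direction of the smaller differences depended on how dye bias was removed. With each array centred on its median in place of the intensity-dependent loess correction, 358 genes were higher and 3055 lower. The count was 1593 without BUCY treated arrays 2 and 3, 4377 without BUCY treated array 1 and 4549 without BUCY treated array 5.

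Untreated piglets of the experiments differed in more genes, 6241 (25.2%), of which 3227 were higher in the BUCY experiment (13.0%) and 3014 lower (12.2%). With median centring these became 1453 higher and 2398 lower. Both comparisons called 1320 genes in the same direction, 444 higher and 876 lower, which is 50.2% of the genes called between treated piglets and 21.2% of those called between untreated piglets. Only 41 genes were called in opposite directions. The treated and untreated comparisons use different piglets, and they share the pool and the slides. Across all genes tested the treated and untreated differences correlated with r = 0.52, a description over genes, which are not independent replicates. A direct test of the treated difference against the untreated difference, the interaction term of the same model, called 1458 genes (5.89%), 781 with the treated difference more positive (3.15%) and 677 more negative (2.73%). That count was 104 with median centring, 732 without BUCY treated arrays 2 and 3, 947 without BUCY treated array 2, 2392 without BUCY treated array 1 and 939 without DOX treated array 6.

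**Figure D1:**
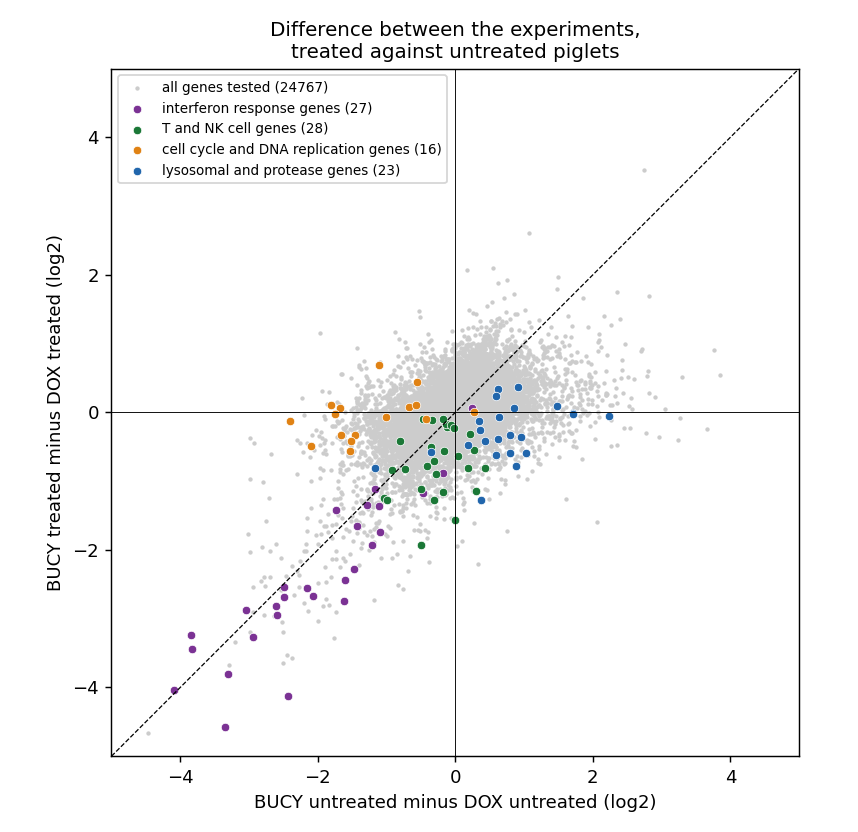
Each point is a gene, with the log2 difference between untreated piglets of the BUCY and DOX experiments on the horizontal axis and that between the treated piglets on the vertical axis, and the dashed line marks equal differences. Interferon response genes lie near that line at the lower left, with medians of -2.07 and -2.55, while cell cycle genes (medians -1.49 and -0.04) and lysosomal genes (0.64 and -0.32) lie away from it.

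Interferon-induced genes had the lowest median difference between the treated groups of all gene lists examined. Of 27 interferon response genes tested, 26 were lower in BUCY treated piglets and 0 higher. Their median difference was -2.55, against 0.02 over all genes tested and -0.04 over those with a symbol. IRF3, a sensor-activated factor that is present without interferon, was the gene that did not pass the test (0.06). In 24 of the 27 every BUCY treated piglet lay below every DOX treated piglet. In that direction 3.34% of all genes tested, and 155 of the 2619 with a symbol, showed the same. The list median of a piglet ran from -2.31 to -1.81 among BUCY treated piglets. Among DOX treated piglets it ran from -0.24 to 0.81, so the groups were far apart.

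RSAD2 (viperin), which blocks the replication of many viruses, had log2 ratios of -5.22, -5.09, -4.42, -3.67 and -4.56 in the BUCY treated piglets. In the DOX treated piglets they ran from -1.33 over a median of 0.19 to 0.69. All 5 BUCY treated values lay below all 6 DOX treated values, a 23.8-fold difference (-4.57, SE 0.36, limma adjusted p = 1.6e-08).

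MX2, a GTPase that restricts viruses, measured -3.93, -3.11, -2.71, -3.93 and -3.11 in the BUCY treated piglets. In the DOX treated piglets the lowest, median and highest values were -0.34, 0.86 and 1.02. The group difference was 16.4-fold (-4.04, SE 0.24, limma adjusted p = 6.8e-10). IFIT1, which binds viral RNA, was at -2.84, -2.36, -1.91, -2.32 and -2.48 after BUCY and from -0.03 over 0.59 to 0.89 after DOX. Its BUCY treated values also lay wholly below the DOX treated ones (-2.95, SE 0.18, limma adjusted p = 6.8e-10). The lowest DOX treated value of each of MX2 and IFIT1 came from array 6 of that group.

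Other interferon-induced genes showed the same direction. The differences were -4.12 for CXCL10, a chemokine that draws T cells, and -3.81 for IFIT3. OASL, an antiviral relative of the oligoadenylate synthetases, was lower by 10.8-fold, and the ubiquitin-like ISG15 by 9.43-fold. BST2 (tetherin), which holds budding viruses on the cell, MX1 and ISG12(A) were lower by 9.63-fold, 7.34-fold and 7.39-fold. USP18, which removes ISG15 from proteins and damps interferon signalling, was lower by 5.81-fold. In all of these the treated groups did not overlap. Of these interferon-induced genes only ISG15 lost its call under any alternative tried, with the Cy5 signal taken alone (-2.43, adjusted p = 0.11).

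The same genes were lower in the BUCY experiment without any drug. Among untreated piglets 24 of the 27 were lower in the BUCY experiment and 0 higher, with a median of -2.07, and these 24 were all called between the treated piglets too. The untreated difference was -4.09 for MX2, -3.35 for RSAD2 and -2.59 for IFIT1. The interaction in limma called 0 of the 27 after adjustment, with 7 at an unadjusted p below 0.05. Without BUCY treated array 1, and without the suffixed arrays, it called 2. For MX2 it was 0.06 (SE 0.33, adjusted p = 0.96) and for RSAD2 -1.22 (SE 0.51, adjusted p = 0.17). The list's treated median was -2.52, -2.51 and -2.35 within scan days 1, 2 and 3. It was -2.43 without BUCY treated arrays 2 and 3, with 24 genes lower.

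**Figure D2:**
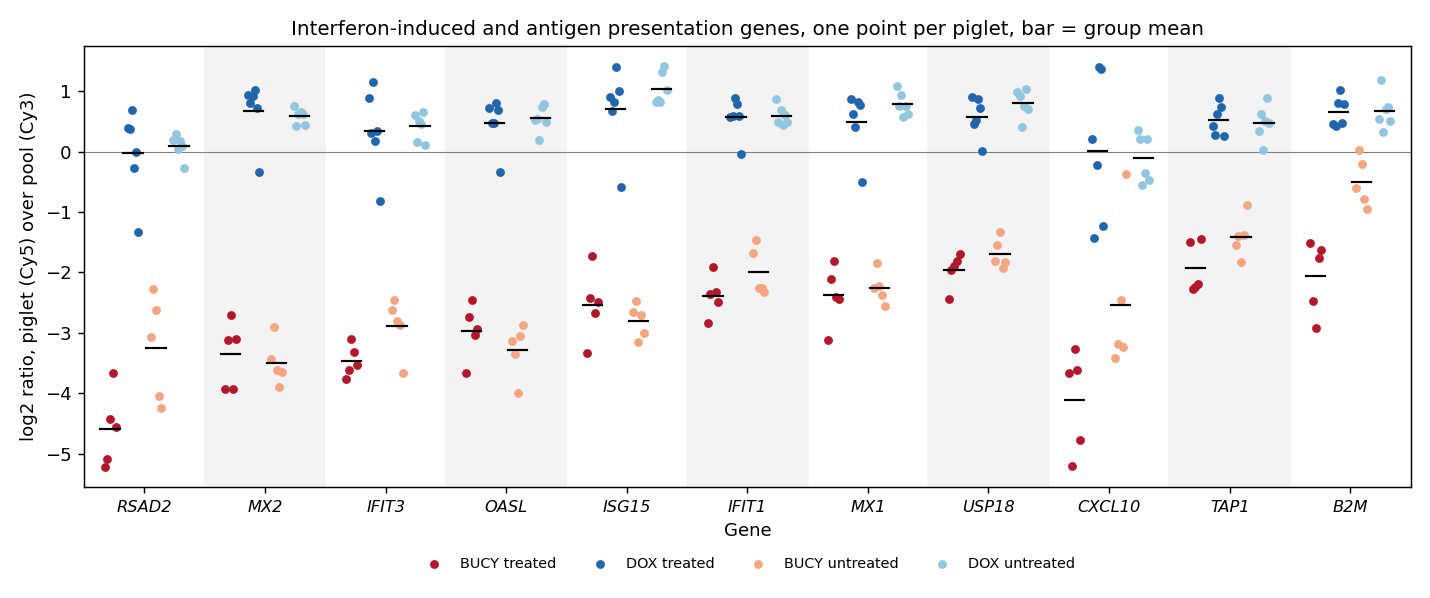
Log2 ratio of each piglet to the pool for 11 interferon-induced and antigen presentation genes in the 4 groups, one point per piglet and a bar at the group mean. For MX2 the BUCY treated points lie between -3.93 and -2.71 and the BUCY untreated points between -3.90 and -2.91, whereas both DOX groups lie between -0.34 and 1.02.

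MHC class I presentation was lower as well. Of 17 genes tested, 11 were lower in BUCY treated piglets and 0 higher, with a median of -0.90. B2M, the invariant chain of every class I molecule, measured -1.51, -2.48, -2.91, -1.75 and -1.63 after BUCY and from 0.43 over 0.63 to 1.02 after DOX. The groups did not overlap and differed by 6.59-fold (-2.72, SE 0.23, limma adjusted p = 4.3e-08). TAP1, which pumps peptides into the endoplasmic reticulum, was lower by 5.52-fold and PSMB9, a subunit of the immunoproteasome, by 2.52-fold. The class I heavy chain SLA-5 was lower by 4.33-fold. Probes of the pig class I genes, which are close in sequence, may share signal.

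Untreated piglets of the BUCY experiment also had lower class I genes, 10 of 17. For B2M the treated difference was larger than the untreated one of -1.18 (interaction -1.55, SE 0.32, limma adjusted p = 0.0068). With median centring the interaction was -2.10 (adjusted p = 0.13), and in the deposited value table it was -0.94 (adjusted p = 0.058). For TAP1 the interaction was -0.58 (adjusted p = 0.22). PSME2, a proteasome activator subunit, was called the other way (0.85, chosen after its value was seen).

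T and NK cell genes were lower in BUCY treated piglets in 20 of 28 tested and higher in 0, with a median of -0.74. In tissue RNA, fewer cells of a type and less RNA per cell cannot be told apart. CCL5, a chemokine released by activated T cells, was at -2.23, -2.84, -1.91, -2.06 and -2.07 after BUCY and from -0.88 over -0.28 to 0.40 after DOX. The groups did not overlap (-1.93, SE 0.25, limma adjusted p = 1.6e-05). CD2, an adhesion receptor of T and NK cells, measured -1.56, -1.67, -0.95, -1.27 and -1.10 after BUCY and from -0.53 over -0.21 to 0.59 after DOX (-1.28, SE 0.20, adjusted p = 0.00022). It was well above background on 3 of the 5 BUCY treated arrays. CD247, the zeta chain of the T cell receptor, differed by -1.12. Without a drug CD2 differed by -0.99 and CD247 by -0.49 (adjusted p = 0.064).

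With slide as a fixed block only 2 of these T and NK cell genes passed, CD2 (-0.85, adjusted p = 0.089) not among them. That fit loses BUCY treated array 2, which is alone on its slide. Restricted to genes well above background on all 22 arrays, 10 were lower.

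Among untreated piglets 7 of the 28 were lower in the BUCY experiment, about the share among genes with a symbol (23.7%). The list's untreated median was -0.23. The interaction called 4, CCL5 (-1.43, SE 0.35, adjusted p = 0.017), CD96, GATA3 and XCL1, and 0 of these under median centring. For CCL5 the untreated difference was -0.49 (adjusted p = 0.15). The interaction of CCL5 also missed the threshold without BUCY treated arrays 2 and 3 (-1.33, adjusted p = 0.052), with the slide block (-1.12, adjusted p = 0.092) and over the mean of its probes (-0.98, adjusted p = 0.061). CCR9, which homes T cells to the small intestine, differed by -0.57 between treated groups (adjusted p = 0.029), a call lost when any of 5 single arrays was left out.

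**Figure D3:**
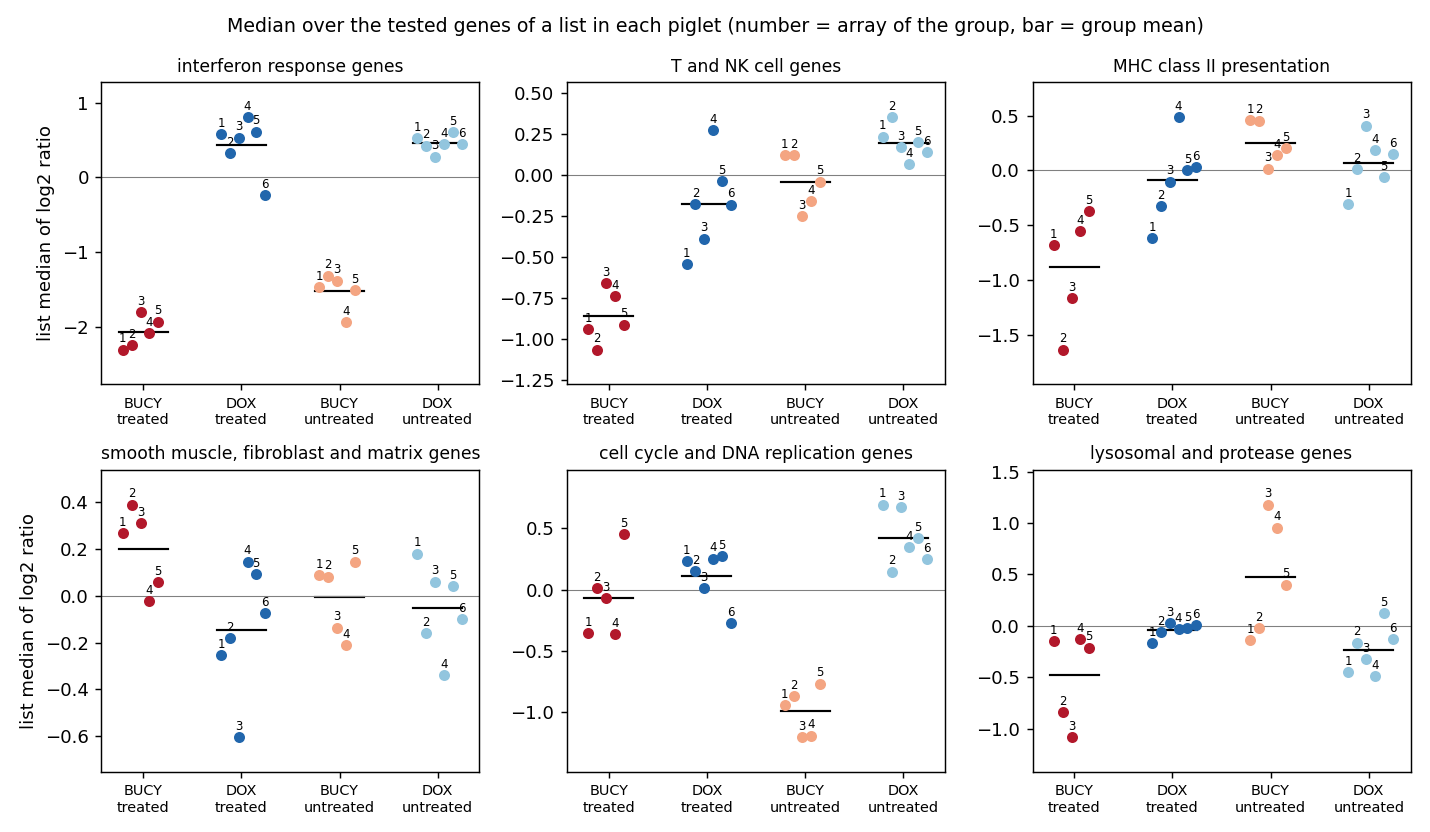
Median log2 ratio over the tested genes of 6 lists in each piglet, with the number of the array in its group and a bar at the group mean. BUCY treated piglets lie below the other groups for T and NK cell genes (-1.06 to -0.66), and BUCY treated arrays 2 and 3 are the lowest for MHC class II and lysosomal genes.

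MHC class II genes, which antigen-presenting cells use to show peptides to helper T cells, were lower in BUCY treated piglets in 4 of 10 tested and higher in 0 (median -0.61). SLA-DRA, the alpha chain of the DR molecule, measured -1.21, -2.45, -2.15, -0.70 and -1.0 after BUCY and from -0.88 over -0.45 to 0.41 after DOX. The groups overlapped, and arrays 2 and 3 were the lowest (-1.14, SE 0.27, limma adjusted p = 0.0087). Without those arrays the difference was -0.61 (adjusted p = 0.13). SLA-DMB, which helps to load peptides, and SLA-DQA1 gave -1.15 and -0.86, and without the same arrays -0.59 (adjusted p = 0.20) and -0.62 (adjusted p = 0.15). SLA-DQA1 also lost its call without BUCY treated array 2 alone (adjusted p = 0.057).

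IFI30, a lysosomal reductase that prepares antigens, was the class II list's gene that passed under every alternative tried. It measured -0.61, -1.21, -1.10, -0.84 and -0.66 after BUCY and from -0.24 over 0.26 to 0.49 after DOX (-1.11, SE 0.15, adjusted p = 5.3e-05). In untreated piglets limma called 0 of the 10 genes, with 4 at an unadjusted p below 0.05. The interaction called 4 (IFI30, SLA-DRA, SLA-DQA1 and SLA-DQB1), and between 1 and 5 when any single array was left out. It called 0 under median centring, without the suffixed arrays and without BUCY treated arrays 2 and 3. BUCY treated arrays 2 and 3 were among the single arrays that left 1.

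Macrophage and dendritic cell genes were lower in 11 of 23 tested and higher in 0, and untreated piglets of the BUCY experiment had 10 of the 23 lower. CD86, the costimulatory ligand that licenses T cells, was at -2.23, -2.79, -2.27, -2.95 and -1.75 after BUCY and from 0.35 over 0.53 to 0.79 after DOX. The groups did not overlap (-2.97, SE 0.20, limma adjusted p = 2.1e-09), and the untreated difference was -2.63. GPNMB, a membrane protein of phagocytes, was lower by 4.41-fold, well above background on 4 of the 5 BUCY treated arrays. AIF1, a macrophage actin-bundling protein, differed by -0.91, which did not pass with slide as a fixed block (-0.51, adjusted p = 0.21). SIGLEC1, an interferon-inducible sialic acid receptor of macrophages, was not well above background on any BUCY treated array, so no fold is given, with measured means of -0.40 and 0.14 (adjusted p = 0.0017, and 0.080 with slide as a fixed block). The interaction in limma called 0 of the 23, with 1 at an unadjusted p below 0.05. The treated count fell to 7 without BUCY treated array 2 and without each of DOX treated arrays 3, 4 and 5, and to 3 with slide as a fixed block.

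Sensors of microbes and damage followed in part. Of 24 pattern recognition and NF-kB genes, 6 were lower in BUCY treated piglets and 0 higher, against 7 lower and 2 higher without a drug. The interaction called 1 of the 24 higher and 0 lower. CASP1, the inflammasome protease that matures interleukin-18, was lower by 4.05-fold and TLR7, a sensor of viral RNA, by 2.64-fold, both with no overlap between the groups. TLR4, the endotoxin receptor, differed by -0.82 and TLR2, which binds bacterial lipoproteins, by -0.98. TLR4 did not pass with slide as a fixed block (-0.50, adjusted p = 0.17), nor TLR2 without the suffixed arrays (-0.78, adjusted p = 0.083). Untreated piglets showed the same direction for these 4 genes, for CASP1 by -1.74. The interaction was -0.28 for CASP1 (adjusted p = 0.69).

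IL18, the cytokine that CASP1 activates, measured -0.37, -1.15, -2.48, -1.70 and -1.36 after BUCY. After DOX it ran from 0.06 over 0.41 to 0.96. The ranges stayed apart (-1.83, SE 0.26, limma adjusted p = 7.9e-05). Its untreated difference was -0.42 (adjusted p = 0.28) and the interaction -1.41 (SE 0.37, adjusted p = 0.027), which was -1.75 with median centring (adjusted p = 0.17), -1.14 without BUCY treated arrays 2 and 3 (adjusted p = 0.073), -0.74 without the suffixed arrays (adjusted p = 0.34) and -1.33 without BUCY untreated array 2 (adjusted p = 0.055). IL16, a chemoattractant for CD4 cells, differed by -1.05 between treated and -0.34 between untreated piglets. Of 46 cytokine and receptor genes 10 were lower and 2 higher between treated piglets, against 16 lower and 2 higher without a drug. The interaction called 1 higher and 2 lower. The higher ones between treated piglets were the interferon receptor chains IFNAR1 (0.48) and IFNGR2 (0.97, adjusted p = 0.00051). With median centring the difference of IFNGR2 was 0.39 (adjusted p = 0.15).

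Phagocyte and complement genes went both ways. Of 18 neutrophil and monocyte granule genes tested, 2 were higher in BUCY treated piglets and 3 lower. Without a drug 2 were higher and 5 lower. Among genes with a symbol 4.66% were higher and 11.6% lower between treated piglets. MMP9, given below with the matrix genes, was among the higher ones of this list. ITGB2, the common chain of the leukocyte integrins, differed by -1.0, and by a like amount between untreated piglets (-1.05). GP91-PHOX, the catalytic subunit of the phagocyte oxidase, differed by -0.97 between treated piglets and -0.22 between untreated ones (interaction adjusted p = 0.11). Its treated call was lost with slide as a fixed block (-0.72, adjusted p = 0.069). Of 31 complement and acute phase genes 3 were higher between treated piglets, HP (given below) and CD59 among them, and 2 lower. CD59 differed by 0.42 (limma adjusted p = 0.012), and by 0.33 without BUCY treated arrays 2 and 3 (adjusted p = 0.083). The lower ones, the complement receptor C5AR1 and the complement protease C2, fell by 2.50-fold and 2.63-fold. They differed by -0.72 and -1.48 without a drug. BUCY treated array 3 lay apart for C2, at 0.83 against -1.10 to -0.53 in the other arrays of its group. TNFSF13B (BAFF), a survival factor for B cells, was lower by 2.42-fold after BUCY and differed by -1.37 without a drug.

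Secreted defence proteins did not move one way. Of 24 tested, 6 were lower in BUCY treated piglets and 2 higher, against 7 lower and 3 higher without a drug. LYZ (lysozyme), which cleaves bacterial cell walls, measured -2.81, 0.34, 1.32, -1.94 and -2.16 after BUCY and from 1.07 over 2.21 to 2.51 after DOX. BUCY treated arrays 2 and 3 were the high ones, and array 3 overlapped the DOX treated range (-3.03, SE 0.64, limma adjusted p = 0.0040). ITLN2 (intelectin-2), a lectin, was at -3.15, -3.67, -0.44, -1.99 and -2.57 after BUCY and from -0.33 over 0.12 to 0.55 after DOX (-2.45, SE 0.56, adjusted p = 0.0071). It missed the threshold with slide as a fixed block (-1.64, adjusted p = 0.23). Both were lower without a drug too, by -2.0 and -2.82.

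ANG (angiogenin), a ribonuclease with antimicrobial activity, measured -0.79, -1.66, -0.97, -1.13 and -1.18 after BUCY. After DOX it ran from 0.02 over 1.23 to 1.83. The treated groups were fully apart (-2.30, SE 0.26, limma adjusted p = 3.7e-06), and the DOX untreated values ran from -0.64 to 0.17. The untreated difference was -0.69 (adjusted p = 0.059). The interaction was -1.61 (SE 0.37, adjusted p = 0.012), -1.97 with median centring (adjusted p = 0.078) and -1.70 without the suffixed arrays (adjusted p = 0.099). WFDC2, a protease inhibitor with a whey acidic protein fold, differed by -1.21 between treated piglets and -0.20 between untreated ones. Its treated call was lost without the suffixed arrays (-0.98, adjusted p = 0.096), and the interaction did not call it.

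REG3G, a lectin that kills Gram-positive bacteria, had the larger of the 2 increases. Its log2 ratios were 2.17, 1.61, 2.05, 0.35 and 2.38 after BUCY and from -1.99 over -0.38 to 1.43 after DOX. The BUCY treated array 4 lay inside the DOX treated range and the other 4 above it (2.07, SE 0.44, limma adjusted p = 0.0044). All untreated piglets lay at or below -1.76, with medians of -2.47 in the BUCY experiment and -2.85 in the DOX experiment, a difference that did not pass the test (0.17, adjusted p = 0.84). The interaction was 1.90 (SE 0.63, adjusted p = 0.079). The treated call was lost with median centring (1.43, adjusted p = 0.073), with slide as a fixed block (1.73, adjusted p = 0.11), without the suffixed arrays (2.24, adjusted p = 0.056) and with array weights (1.80, adjusted p = 0.074). DEFB1, a defensin, was 1.24 higher after BUCY and 1.11 higher without a drug. Its other probe gave -0.17 between the treated groups, and the mean of both probes 0.53 (adjusted p = 0.088).

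SFTPD (surfactant protein D) and DMBT1, secreted proteins that bind microbes, are named in the title of the study. SFTPD measured 0.52, -1.07, -0.39, 0.06 and 0.62 after BUCY and from 0.43 over 0.65 to 0.92 after DOX. The groups overlapped. The difference was -0.73 (two-sided exact permutation p = 0.035 over 462 splits, 0.069 adjusted over both genes, limma adjusted p = 0.12). It was -0.47 without BUCY treated array 2. Without a drug SFTPD differed by -1.43 (adjusted p = 0.0013), and the interaction was 0.70 (adjusted p = 0.40). DMBT1 measured 1.35, 0.87, -0.13, 0.81 and 1.18 after BUCY and from 0.30 over 0.55 to 1.11 after DOX, a difference of 0.21 with exact permutation p = 0.45. It ranged from 0.07 without BUCY treated array 1 and 0.12 without array 5 to 0.44 without array 3. Without a drug DMBT1 was 4.69-fold lower in the BUCY experiment. The interaction was 2.44 (SE 0.30, limma adjusted p = 0.00033), and 2.0 with median centring (adjusted p = 0.13).

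Goblet cell genes were lower in BUCY treated piglets. Of 17 goblet, tuft and mucus genes tested, 7 were lower and 0 higher, with a median of -0.44. CLCA1, secreted into mucus by goblet cells, was at -1.48, -2.31, -1.29, -2.51 and -1.63 after BUCY and from -0.32 over 0.23 to 0.72 after DOX. No value was shared between the groups' ranges (-2.09, SE 0.34, limma adjusted p = 0.00036). SPINK4, a trypsin inhibitor-like peptide of goblet cells, measured -1.84, -1.43, -0.49, -1.55 and -1.71 after BUCY and from -0.17 over 0.04 to 0.25 after DOX. All BUCY treated values were again the lower (-1.45, SE 0.22, adjusted p = 0.00018). SPDEF, the transcription factor of goblet cell maturation, differed by -1.31. The membrane mucin MUC4 differed by -0.80 and was well above background on 1 of the 5 BUCY treated arrays.

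The goblet genes parted in the untreated piglets. SPDEF was as different there as between the treated groups (-1.35, interaction adjusted p = 0.97). SPINK4 gave -0.28 (adjusted p = 0.40), CLCA1 -0.66 (adjusted p = 0.17) and MUC4 -0.14 (adjusted p = 0.49). The interaction called 5 of the 17, all towards lower values after BUCY, among them SPINK4 (-1.16, adjusted p = 0.032) and MUC4 (-0.67, adjusted p = 0.029), but not CLCA1 (-1.43, adjusted p = 0.088). For SPINK4 that call was lost when any of 8 single arrays was left out, and for MUC4 without BUCY treated array 5 (adjusted p = 0.052). Over the mean of its probes the MUC4 interaction was -0.23 (adjusted p = 0.22). Both calls were also lost with scaling between arrays and with Cy5 alone, and that of SPINK4 with slide as a fixed block (-1.23, adjusted p = 0.098). Under median centring the interaction called 1 of the 17, and without the suffixed arrays 1. It called 3 when BUCY treated array 2, BUCY treated array 5, DOX treated array 6 or BUCY untreated array 2 was left out.

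Of 17 tight junction and barrier genes 2 were lower after BUCY, about the share among genes with a symbol (11.6%), and 2 were higher and 2 lower without a drug. CLDN23, a claudin, differed by -1.04 with no overlap between groups (adjusted p = 1.0e-04). OCLN (occludin) differed by -0.57 (adjusted p = 0.035), and by -0.29 without BUCY treated arrays 2 and 3 (adjusted p = 0.33).

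Some genes of vessels, matrix and muscle were higher after BUCY. Of 31 smooth muscle, fibroblast and matrix genes 7 were higher in BUCY treated piglets and 0 lower, with a median of 0.43. With median centring the list's median was -0.14, with 1 gene higher and 1 lower, so its direction turned. Without BUCY treated arrays 2 and 3, 2 were higher. Without BUCY treated array 5, 11 were higher and 1 lower. Untreated piglets had 3 higher and 1 lower, with a median of 0.00.

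MMP9, a gelatinase carried by neutrophils and macrophages, measured 0.64, 0.96, 0.07, 1.55 and 2.03 after BUCY and from -1.48 over -1.03 to 0.22 after DOX. Only BUCY treated array 3 lay inside the DOX treated range (1.80, SE 0.32, limma adjusted p = 0.00082). It was higher by 1.48 without a drug too, and the treated call was lost with median centring (1.21, adjusted p = 0.065). COL5A1, a chain of fibrillar collagen, was at 0.31, 0.39, 0.84, 0.29 and 0.47 after BUCY and from -0.69 over -0.30 to 0.04 after DOX. All BUCY treated values lay to one side of the DOX treated ones (0.77, SE 0.17, adjusted p = 0.0043). With median centring the difference was 0.36 (adjusted p = 0.16). POSTN (periostin), a matrix protein of fibroblasts, differed by 1.45, led by array 3 at 1.89, and by 0.85 without arrays 2 and 3 (adjusted p = 0.059).

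Among 17 genes of endothelium and blood cells 5 were higher and 1 lower, with a list median of 0.20 that turned to -0.12 under median centring. Without a drug 4 were higher and 1 lower, and 4 were called in both comparisons in the same direction. The interaction called 1 of the 17, higher. SELP (P-selectin), which captures leukocytes on vessel walls, measured 0.76, 0.52, 1.48, -0.08 and 0.45 after BUCY. After DOX it ran from -0.52 over -0.40 to -0.24. The ranges stayed apart (1.02, SE 0.21, limma adjusted p = 0.0036), and with median centring the difference was 0.55 (adjusted p = 0.088). Its untreated difference was -0.12 and the interaction 1.14 (adjusted p = 0.029), or 0.81 with median centring (adjusted p = 0.22). It missed the threshold without DOX untreated array 1 (adjusted p = 0.052) and without BUCY untreated array 4 (adjusted p = 0.053).

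VWF, the platelet-binding protein of endothelium, was higher after BUCY by 0.75 and without a drug by 0.92. With median centring its treated difference was 0.15 (adjusted p = 0.65). PECAM1, a junction protein of endothelium, and VEGFA, its growth factor, differed by 1.34 and 1.22, and by 0.70 (adjusted p = 0.092) and 0.83 (adjusted p = 0.085) without arrays 2 and 3. Without a drug they differed by 0.53 (adjusted p = 0.23) and 0.81 (adjusted p = 0.035). The PECAM1 interaction was 0.81 (adjusted p = 0.31). With slide as a fixed block 0 genes of this list passed in the higher direction.

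HP (haptoglobin), an acute phase protein that binds free haemoglobin, was the gene with a symbol and the largest increase. It measured 2.41, -0.40, 2.44, 0.75 and 1.23 after BUCY and from -1.30 over -0.78 to -0.20 after DOX. BUCY treated array 2 lay inside the DOX treated range (2.10, SE 0.42, limma adjusted p = 0.0025). Without the suffixed arrays it just missed the threshold (1.75, adjusted p = 0.0502). Its untreated difference was 0.55 (adjusted p = 0.38), and the interaction was 1.55 (adjusted p = 0.14). Of 31 complement and acute phase genes 3 were higher and 2 lower, against 3 higher and 6 lower without a drug. Among genes with a symbol 4.66% were higher and 11.6% lower between treated piglets. HOMER2, a scaffold protein of receptor signalling, measured 1.53, 0.17, -0.11, 1.41 and 1.38 after BUCY and from -1.5 over -1.22 to 0.05 after DOX (1.93, SE 0.46, adjusted p = 0.0087). It missed the threshold with median centring (1.53, adjusted p = 0.053), and the untreated difference was 0.74 (adjusted p = 0.26). The HOMER2 interaction was 1.19 (adjusted p = 0.33). IGFBP2, which binds insulin-like growth factors, was at 2.33 on BUCY treated array 3 and between 0.12 and 0.47 on the other arrays of the group (1.25, adjusted p = 0.0041). Without a drug it differed by 0.58 (adjusted p = 0.12), with the untreated groups not overlapping. The IGFBP2 interaction was 0.67 (adjusted p = 0.35).

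Of 37 glutathione and oxidative stress genes 6 were higher (CAT, GPX3, HMOX1, MT3, PRDX2 and PRDX6) and 3 lower (GSTA1, MGST3 and PRDX3), against 11 higher and 10 lower without a drug. PRDX6, a peroxidase that also repairs lipids, measured 0.73, 0.67, 0.07, 0.72 and 0.77 after BUCY and from -0.40 over -0.21 to -0.05 after DOX. The treated groups were fully apart (0.81, SE 0.12, adjusted p = 0.00012), but with median centring the difference was 0.26 (adjusted p = 0.49), and 0 of the 37 were then higher. Without DOX treated array 5, 3 were higher. HMOX1, which degrades haem, differed by 0.84 after treatment and by 1.28 without a drug, and by 0.21 with median centring (adjusted p = 0.69).

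**Figure D4:**
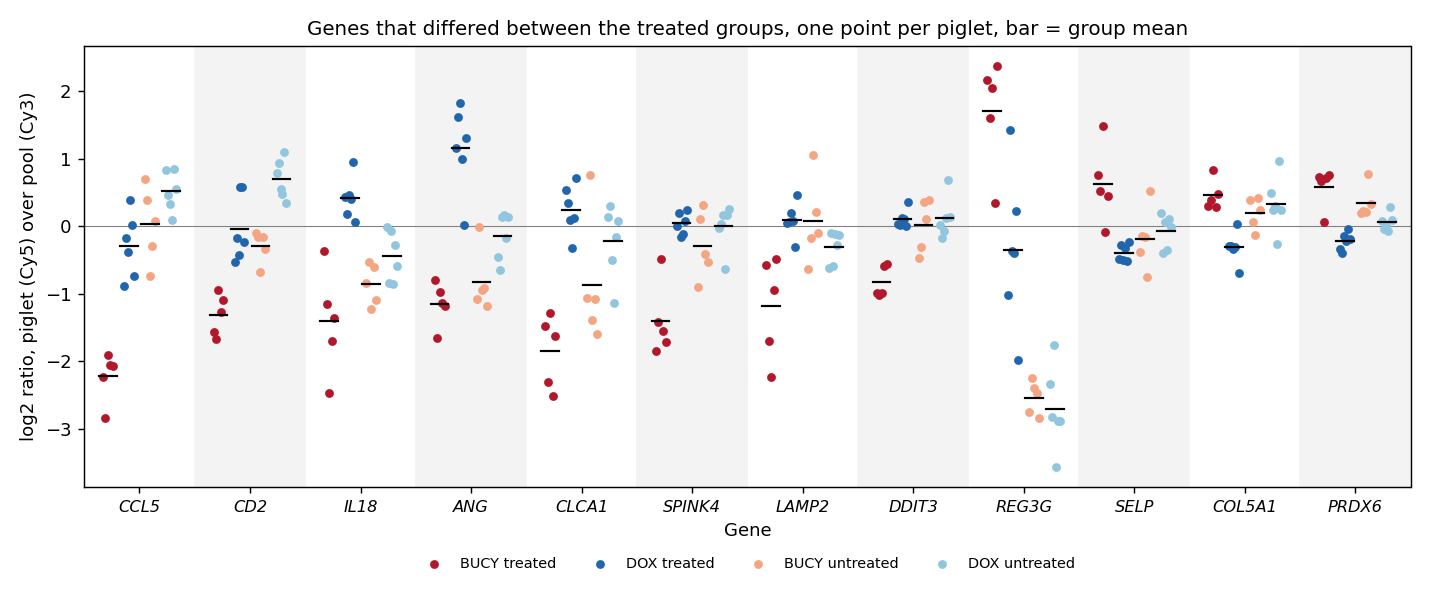
Log2 ratio of each piglet to the pool for 12 immune, epithelial, stress, vessel and matrix genes in the 4 groups, one point per piglet and a bar at the group mean. For ANG, CLCA1 and SPINK4 the BUCY treated points lie below all DOX treated points, and for SELP, COL5A1 and PRDX6 above them.

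Genes of dividing cells differed between the untreated groups in most cases, and 1 of them between the treated groups. Of 16 cell cycle and DNA replication genes tested, 1 was lower in BUCY treated piglets and 0 higher, with a median of -0.04. Without a drug 13 were lower in the BUCY experiment, with a median of -1.49. CCNB1 (cyclin B1), which drives entry into mitosis, measured -0.52, 0.28, -0.47, -0.75 and 0.67 after BUCY and from -0.50 over 0.00 to 0.43 after DOX. These groups overlapped (-0.12, SE 0.22, limma adjusted p = 0.77), while the untreated groups lay apart, from -2.23 to -1.32 and from 0.36 to 0.78. The interaction was 2.29 for CCNB1 (SE 0.32, adjusted p = 0.00042) and called 12 of the 16, all in this direction. It called 10 without BUCY treated arrays 2 and 3, 6 without the suffixed arrays and 1 under median centring, where CCNB1 gave 1.98 (adjusted p = 0.070). Median centring also moved the treated median of the list to -0.55, with 3 genes lower. PRIM1, a subunit of the DNA primase, was the called gene between treated groups (-0.56, adjusted p = 0.041), and lost that call when any of 7 single arrays was left out.

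Mitochondrial and protein-folding genes also differed more often between the untreated groups. Of 16 respiratory chain genes 11 were lower and 1 higher in untreated piglets of the BUCY experiment, against 0 and 1 between treated piglets, and the interaction called 9 higher. Of 22 folding and unfolded protein response genes 10 were lower without a drug, against 2 lower and 1 higher after treatment, and the interaction called 7 higher and 1 lower. Under median centring the interaction called 0 in both lists, and between treated piglets 4 respiratory chain genes and 6 folding genes were then lower. The lower one in the interaction was DDIT3 (CHOP), a transcription factor induced by stress of the endoplasmic reticulum. It measured -0.99, -1.02, -0.99, -0.59 and -0.56 after BUCY and from 0.00 over 0.07 to 0.36 after DOX. No value was shared between the groups' ranges (-0.93, SE 0.16, adjusted p = 0.00056), and the untreated groups gave -0.10. Its interaction (-0.83, adjusted p = 0.032) was lost when any of 9 single arrays was left out.

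Lysosomal and absorptive genes were often higher in untreated piglets of the BUCY experiment. Of 23 lysosomal and protease genes 11 were higher and 1 lower without a drug (median 0.64), against 0 higher and 2 lower after treatment (median -0.32). The interaction called 9, all towards lower values after BUCY, but 4 without BUCY treated arrays 2 and 3, 1 without the suffixed arrays and 0 under median centring. Between treated piglets 9 were lower under median centring, 6 without BUCY treated array 1, 4 without BUCY treated array 5 and 4 with slide as a fixed block. LAMP2, a membrane protein of the lysosome, measured -0.58, -1.70, -2.24, -0.94 and -0.48 after BUCY and from -0.31 over 0.07 to 0.46 after DOX. All BUCY treated values lay to one side of the DOX treated ones (-1.28, SE 0.28, limma adjusted p = 0.0054). Arrays 2 and 3 were the lowest, and without them the difference was -0.76 (adjusted p = 0.077).

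Of 30 enterocyte transport genes 14 were higher and 4 lower without a drug, against 0 and 2 after treatment. AQP10, a water and glycerol channel, measured -0.54, -4.20, -3.81, -1.32 and -1.45 after BUCY and from -3.05 over -2.41 to -0.85 after DOX. Arrays 2 and 3 were again the lowest, and the groups overlapped (-0.08, adjusted p = 0.95), while the untreated difference was 3.27 (adjusted p = 0.00034). The interaction for AQP10 was -3.35 (adjusted p = 0.021), and -2.19 without arrays 2 and 3 (adjusted p = 0.093). Outside that list, SELENOP, which carries selenium, and FOLH1B, which is named for a folate hydrolase, gave 2.96 and 3.76 without a drug. Between treated piglets they gave -0.35 (adjusted p = 0.72) and 0.91 (adjusted p = 0.13).

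For 3 lists the treated median turned with BUCY treated arrays 2 and 3, or rested on them. Without them it moved from -0.16 to 0.33 for enterocyte transport, from -0.25 to 0.32 for brush border enzymes and from 0.02 to 0.46 for markers of the proximal small intestine. Of 16 proximal markers 1 was lower after BUCY with all arrays, and 4 were higher and 0 lower without them. Untreated piglets had 5 proximal markers higher and 1 lower in the BUCY experiment (median 0.61). Distal markers, 7 tested, had a treated median of -0.45 and an untreated one of -0.17. The labels give no intestinal region, and the part of region in the treated results was not tested.

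Of 12 brush border enzymes 1 was higher and 2 lower in BUCY treated piglets, against 5 higher and 0 lower without a drug. The interaction called 3, all towards lower values after BUCY. ACE was the higher one between treated piglets (0.94, limma adjusted p = 0.028). Its difference was 0.26 with median centring (adjusted p = 0.44) and 0.70 without arrays 2 and 3 (adjusted p = 0.22). TMPRSS15 (enteropeptidase), which activates trypsin, measured -0.10, -2.41, -2.59, -1.0 and -1.63 after BUCY and from -0.56 over 0.25 to 0.85 after DOX (-1.72, SE 0.40, limma adjusted p = 0.0074). Without arrays 2 and 3 the difference was -1.09 (adjusted p = 0.12). ENPEP, an aminopeptidase, reached -4.01 on BUCY treated array 3, and its difference moved from -1.54 (adjusted p = 0.035) to -0.43 without arrays 2 and 3 (adjusted p = 0.36).

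Of 36 fat absorption genes 2 were lower between treated piglets, and the interaction called 2 higher. Of 35 fatty acid, sterol and ketone genes 2 were higher, and the interaction called 4 higher. Among genes with a symbol 11.6% were lower and 4.66% higher between treated piglets, and the interaction called 7.41% higher. SCD and FABP3 were named for their interactions. SCD, which makes monounsaturated fatty acids, was 2.67 lower on the log2 scale without a drug in the BUCY experiment (-2.67, SE 0.23). Between treated piglets it differed by -0.61 (adjusted p = 0.097), and the interaction was 2.07 (adjusted p = 0.0014), or 1.74 with median centring (adjusted p = 0.071). FABP3, a fatty acid carrier, gave -2.93 without a drug and -0.45 after treatment (adjusted p = 0.31). Its interaction of 2.47 (adjusted p = 0.0016) passed under every alternative tried.

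Of 30 drug metabolism and export genes 1 was higher and 1 lower in BUCY treated piglets, against 11 higher and 2 lower in untreated piglets of the BUCY experiment. EPHX1, an epoxide hydrolase, was the higher one (1.30, adjusted p = 0.014), or 0.69 with median centring (adjusted p = 0.23). CYP2C42, a cytochrome P450, was the lower one (-1.31, adjusted p = 0.030), and without arrays 2 and 3 it gave -0.92 (adjusted p = 0.25). CYP3A29, the pig form of a main drug-oxidising P450, differed by 3.85 without a drug and 0.55 after treatment (adjusted p = 0.60).

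Of 11 p53 targets 1 was lower after BUCY, near the share among genes with a symbol (11.6%). Without a drug 1 p53 target was higher and 4 lower in the BUCY experiment, and the interaction called 2 higher and 1 lower. Of 9 DNA repair genes limma called 0 between treated piglets, with 1 at an unadjusted p below 0.05. Without a drug 1 of the 9 was higher and 5 lower, and the interaction called 3, all higher. With single arrays left out the interaction called 1 to 5 p53 targets and 3 to 4 DNA repair genes higher. PMAIP1 (NOXA), a p53 target that promotes cell death, was at -0.84, -0.38, -0.79, -0.65 and -0.76 after BUCY and from -0.35 over 0.18 to 1.05 after DOX. The ranges stayed apart (-0.93, SE 0.21, adjusted p = 0.0073), and the untreated difference was -0.55 (adjusted p = 0.067). The interaction did not call PMAIP1. Its treated call was lost with slide as a fixed block (-0.65, adjusted p = 0.24) and without the suffixed arrays (-0.88, adjusted p = 0.13). TDP2, which removes trapped topoisomerase II from DNA, was the DNA repair gene with the smallest p (-0.68, SE 0.26, adjusted p = 0.089). Its values overlapped, from -1.70 to 0.57 after BUCY and from -0.06 to 0.74 after DOX.

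**Figure D5:**
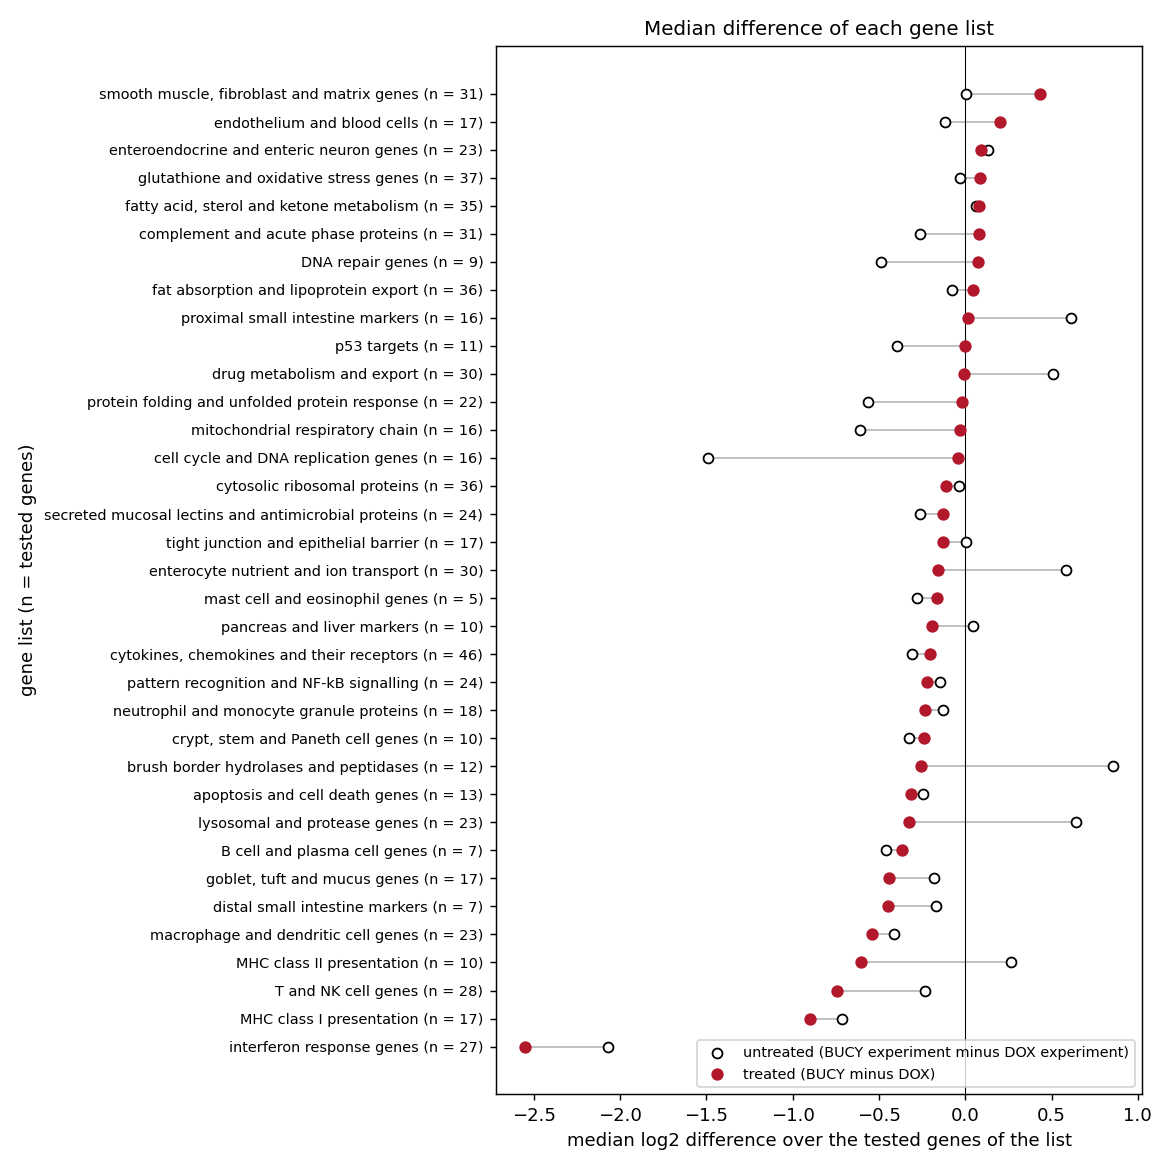
Median log2 difference over the tested genes of each list, between treated piglets (filled) and between untreated piglets (open), joined by a line. Interferon response genes are the lowest in both (-2.55 and -2.07), and the cell cycle, brush border, lysosomal and mitochondrial lists have the filled point near 0 or on the other side of it from the open one.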

How the data were processed

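RNA of 22 piglets (5 BUCY treated, 6 DOX treated, 5 BUCY untreated, 6 DOX untreated) was hybridised to 2-colour Agilent arrays as Cy5 against a Cy3 pool, with no dye swap. Spots were read with Feature Extraction 10.7.3.1, per the file headers. The deposited scanner files give median spot intensity and background per channel, and also a log10 ratio of Cy5 over Cy3. The deposited value table holds log2 ratios whose processing is not given in the sources used here. Its columns correlated at 0.995 or above with log ratios that were also quantile-normalised between arrays, a form made for this check alone, and 177 of its values are missing.

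In R 4.3.3 with limma 3.58.1, intensities were background-corrected (normexp, offset 50) and loess-normalised within arrays, with no normalisation between arrays. Control spots had weight 0. Outlier spots (3 to 52 an array) were dropped, and 0 were saturated. The brightest probe stood for a gene. Genes well above background in Cy5 on at least 5 arrays were tested in 1 model over all 4 groups (lmFit, eBayes), with Benjamini-Hochberg adjustment. Of 43603 probes, 15.1% have a symbol. SFTPD and DMBT1 also had an exact permutation test. The fitting code was tested on simulated data.

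Groups come from the labels, and replicate numbers are only names. Nothing in the labels gives litters, so p-values measure the spread between these samples. Arrays lay on 7 slides and 3 scan days, and 6 have a title suffix of unstated meaning. Each scan day holds both treated groups, and 1 slide does. Alternatives covered background, normalisation, filter, probe choice, slide, scan day, array weights, the suffixed arrays, BUCY treated arrays 2 and 3, and each array left out. The groups and gene lists were chosen with earlier results of these data known. Genes named are SFTPD, DMBT1 and the 12 largest rises and falls. Rises and falls were ranked among genes with a symbol that passed the test and exceeded background on most arrays of both treated groups. Named too are up to 4 genes per list by smallest p, and up to 6 in each direction for the untreated difference and the interaction. Other genes are named where a list's called genes are given in full or after their values were seen. Some genes of the lists are counted but not reported here by name.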

Additional observations from a re-analysis of the deposited data

Results flagged for a closer look

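Single arrays lay far from the other arrays of their group in 12 reported cases. With 234 sets of a gene and a treated group screened, chance at about 1 in 20 gives 11.7 of them. The 234 sets cover all named genes, while the 12 are the reported cases alone. Several cases fall on the same array, so they are not independent draws, and 11.7 is only a rough guide. DOX treated array 6 was the lowest of its group for the interferon-induced genes MX2 (log2 ratio -0.3395), OASL (-0.3434), ISG15 (-0.5804), IFIT1 (-0.02977) and MX1 (-0.5027). It was the highest for HOMER2 (0.04592) and DDIT3 (0.3593). Its interferon list median, -0.24, was the lowest among DOX treated piglets and above every BUCY treated piglet. BUCY treated array 3 was the highest for IGFBP2 (2.335) and the lowest for PRDX6 (0.06914), and array 4 the highest for DPEP1 (0.3999). DOX treated array 3 was the lowest for XBP1 (-0.4512) and TPM1 (-0.9138). Why these arrays lay apart was not tested.

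For 31 named genes the difference between treated piglets was not the same as that between untreated piglets, by the interaction term of the limma model. Values are log2, the treated minus the untreated difference. Among immune genes it was negative for ANG -1.614, B2M -1.545, CCL5 -1.435, SLA-DRA -1.411, IL18 -1.41, SLA-DQA1 -1.122, IFI30 -0.9604 and IL16 -0.7082. Among other genes it was negative for AQP10 -3.353, SELENOP -3.315, CYP3A29 -3.306, FOLH1B -2.847, DPEP1 -2.786, MMP20 -2.542, TMPRSS15 -2.482, AMY2 -1.686, LAMP2 -1.651, SPINK4 -1.163, SCARB2 -0.8582, OCLN -0.835, DDIT3 -0.8306 and MUC4 -0.6679. It was positive for PHEROC 3.127, FABP3 2.473, DMBT1 2.437, CCNB1 2.286, GPX2 2.091, SCD 2.067, SELP 1.136, PRIM1 0.9739 and COL5A1 0.9065. Of these 31 calls, 6 remained under median centring, 12 without the suffixed arrays and 15 without BUCY treated arrays 2 and 3.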

How the results depend on the processing

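Of 101 named genes called between the treated groups, 36 kept the call under every alternative run for them. Calls were lost for 49 genes with slide as a fixed block, 40 without the suffixed arrays, 32 without BUCY treated arrays 2 and 3, 29 with only the arrays of the groups compared and 25 with array weights. Median centring weakened 17 and turned 5, to -0.11 for CASP10, -0.21 for MT3, -0.21 for SST, -0.037 for COX7A1 and -0.087 for RPL5. Genes different between the treated groups numbered 958 with slide as a fixed block, 1179 without the suffixed arrays, 1593 without BUCY treated arrays 2 and 3, 1476 with array weights, 1349 when the other groups were left out of the fit, and 1819 to 4549 with 1 array left out. Median centring gave 3851 between untreated piglets. The interaction gave 104 with median centring, 722 with Cy5 alone, 332 without the suffixed arrays, 732 without BUCY treated arrays 2 and 3, and 939 to 2392 with 1 array left out. Genes called in both comparisons numbered 534 with slide as a fixed block, 694 without the suffixed arrays, 834 with only the groups compared, and 993 to 2074 with 1 array left out. The SFTPD difference was -0.90 to -0.47 with 1 array left out, and passed the exact permutation test, adjusted over both genes, without DOX treated array 4 (-0.78, p = 0.048) or BUCY treated array 5 (-0.90, p = 0.038). The cause of these changes was not tested. No paired analysis was possible because the replicate numbers are accession order and pair no piglets. Between 59.7% and 72.5% of probes were well above background, which limits what dim genes show.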
